A study of Mus musculus with 14 samples.

Results

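The genes described are the 4 early growth response genes of the mouse, Egr1, Egr2, Egr3 and Egr4, and the 2 genes of their corepressors, Nab1 and Nab2, in primordial germ cells, from which eggs and sperm descend. The platform annotation gave exactly 1 of these symbols for 10 probe sets, out of 34945 annotated with 1 symbol, so the members are 6 of 18193 genes. Egr4 and Nab2 were selected on their measured signals, which were high in male cells at embryonic day 13.5 (E13.5), so for these genes every comparison that involves the E13.5 males is given as a description, with no test. Expression was measured on Affymetrix arrays in 7 groups of 2 biological replicates. In order of age these were E9.5, E10.5 and E11.5 cells, not divided by sex, E12.5 males and females, and E13.5 males and females. The samples of E10.5 and later were taken from embryos of BDF1 females and males carrying a stella-EGFP transgene on a mixed B6 and CBA background. They were sorted by the green fluorescence of that reporter from genital ridges digested with trypsin at body temperature. The E9.5 cells were from C57BL/6 embryos of an earlier study, with no reporter or sort described for them. Their RNA went through 22 cycles of PCR, against 12 cycles for all later samples, so age, strain, isolation and amplification cannot be told apart between E10.5 and E9.5.

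All values are log2 probe set signals, as normalized by the authors over the 14 arrays together, and a difference of 1 is a change by a factor of 2. The median of the table was 4.72, and a signal below it is called dim. Where a gene had several probe sets the brightest on average stood for it, and a comparison passed at a limma adjusted p under 0.05 over all 18193 genes. Replicate arrays correlated with r of 0.961 to 0.981 over genes. Of 9 germ cell markers measured, none was dim in any group except Dazl at E9.5, which had a mean of 4.71. Dppa3, the gene known as stella, ranged between group means of 13.23 and 13.69. Because the samples are bulk RNA, fewer cells of a type and less RNA per cell cannot be told apart. The difference between 3′ and 5′ probe sets of Gapdh, a sign of RNA length, was 3.16 in E13.5 male replicate 2, 3.09 in E13.5 female replicate 2 and 2.53 in E11.5 replicate 2, and at most 1.57 on the other arrays. For Actb the corresponding values were 2.94, 3.09 and 2.90, within the 2.18 to 3.39 of the other arrays.

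Egr proteins are zinc finger transcription factors that bind a GC-rich site and belong to the immediate early genes, whose transcription starts within minutes of a growth factor or stress signal, largely through ERK kinases acting on serum response factor and its Ets partners. Nab1 and Nab2 bind an inhibitory domain of Egr1, Egr2 and Egr3 and repress their target genes, in part through the NuRD chromatin complex, and Nab2 is itself induced by Egr proteins in other cell types, which closes a feedback loop. In the mouse, Egr1 is known for pituitary Lhb and female fertility, Egr2 for hindbrain segments and myelination, Egr3 for muscle spindles, and Egr4 for male fertility, since males without it have a block in sperm formation. Because an immediate early gene can also be induced while tissue is dissociated, the other immediate early genes and heat shock genes were measured beside the members.

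In the mouse build GRCm38.p6, Egr4 lies at chr6:85511121-85513589, Nab2 at chr10:127660918-127666703 and Nab1 at chr1:52455849-52500712. Egr2 lies at chr10:67534469-67542188 and Egr3 at chr14:70077317-70082613. The 250 bases before the annotated start are shown for the pair of genes that were high together in E13.5 males, Egr4 and Nab2, for the other corepressor, Nab1, and for the third of 5 annotated starts of Egr2, whose window held both serum response and cyclic AMP response letters. The sequences are RefSeq's for that build, on the gene's strand. Capitals mark EGR sites, CRE cores (the inner letters of the cyclic AMP response element) and CArG boxes (the site of serum response factor).
Egr4, chr6:85513590-85513839, minus strand: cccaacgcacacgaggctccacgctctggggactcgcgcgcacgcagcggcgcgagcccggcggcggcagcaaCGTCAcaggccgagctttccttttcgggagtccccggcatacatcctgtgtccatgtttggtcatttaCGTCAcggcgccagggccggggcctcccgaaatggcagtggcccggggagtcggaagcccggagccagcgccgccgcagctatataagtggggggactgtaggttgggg
Nab2, chr10:127666704-127666953, minus strand: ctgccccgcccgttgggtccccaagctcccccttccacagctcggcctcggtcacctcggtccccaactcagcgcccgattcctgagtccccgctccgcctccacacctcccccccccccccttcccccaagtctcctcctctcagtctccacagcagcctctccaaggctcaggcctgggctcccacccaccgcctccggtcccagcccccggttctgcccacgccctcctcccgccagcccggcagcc
Nab1, chr1:52500449-52500698, minus strand: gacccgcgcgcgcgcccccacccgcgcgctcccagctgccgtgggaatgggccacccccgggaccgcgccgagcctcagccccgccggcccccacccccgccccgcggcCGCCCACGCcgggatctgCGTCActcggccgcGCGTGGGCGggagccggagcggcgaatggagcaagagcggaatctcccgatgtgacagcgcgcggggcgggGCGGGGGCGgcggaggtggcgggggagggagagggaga
Egr2, chr10:67537619-67537868, plus strand: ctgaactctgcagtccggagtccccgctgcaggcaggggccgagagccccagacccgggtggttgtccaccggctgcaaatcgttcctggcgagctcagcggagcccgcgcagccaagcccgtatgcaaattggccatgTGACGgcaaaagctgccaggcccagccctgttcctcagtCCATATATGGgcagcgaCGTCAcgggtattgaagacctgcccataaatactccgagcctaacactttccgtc

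Motifs were searched on both strands as plain letters: GCGNGGGCG for the EGR site, TGACGTCA for the full CRE, CGTCA for its core, and the CArG box. A core is also counted where it lies inside a full CRE. The search covered 32851 windows of the same length, none of them on chromosome 18, where Egr1 lies. Of these windows, 4.7% held an EGR site, 1.55% a full CRE, 17.8% a core and 1.47% a CArG box. Nab1 held 3 EGR sites, at positions -141 to -133, -109 to -101 and -38 to -30, where -1 is the last base before the start, and 1 CRE core at -123 to -119. This window was 80.8% G and C, against a median of 52.4% over all windows, and a GC-rich window holds such letters more often by composition alone. Egr4 held 2 CRE cores, at -177 to -173 and -109 to -105. Nab2 held none of these letters in its window, although its G and C content was 72.8%. The Egr2 window shown held a CArG box at -72 to -63 and CRE cores at -111 to -107 and -55 to -51. Starts 4 and 5 of Egr2 share these same matches because their windows overlap, start 2 held a CArG box of its own and start 1 held none. A match is a description of the letters and not a measured site. The map of motif matches places them by distance from the start.

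**Figure D1:**
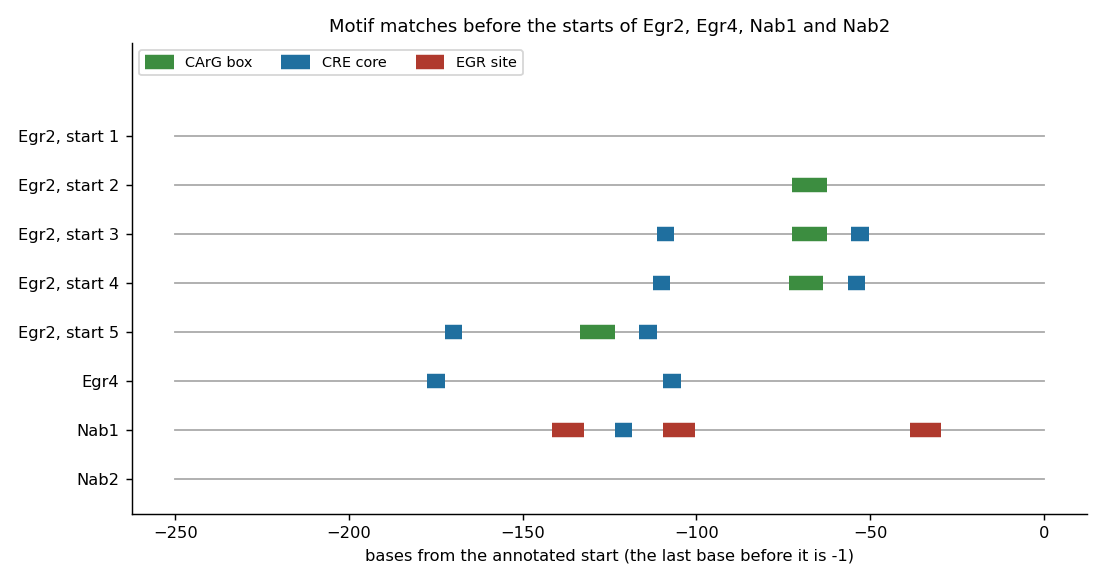
Matches of 3 motifs in the 250 bases before the annotated starts of Egr2 (5 starts), Egr4, Nab1 and Nab2; the horizontal axis is the distance in bases from the start. The EGR sites lie in the Nab1 window, the CArG boxes in 4 of the 5 Egr2 windows, and the Nab2 window is empty.

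Egr4 was measured by 1 probe set, 1449977_at. Its signal was 2.67 and 2.97 at E9.5, 2.58 and 1.59 at E10.5, and 3.01 and 3.39 at E11.5. At E12.5 it was 4.20 and 5.30 in males and 4.26 and 3.99 in females. At E13.5 it was 7.52 and 8.74 in males, and 3.70 and 3.53 in females. All arrays except the 2 of E13.5 males and 1 of E12.5 males were dim for Egr4, so the levels of every group but the E13.5 males have little signal behind them. The E13.5 male mean of 8.13 ± 0.86 (SD, n = 2) lay 3.38 above the E12.5 male mean of 4.75 ± 0.78, 1 of whose arrays was dim. It lay 4.52 above the E13.5 female mean of 3.62 ± 0.12, and no fold is given because both female arrays were dim. The sex difference was thus 3.89 larger at E13.5 than at E12.5. These differences chose the gene and carry no test.

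Outside the E13.5 males, 11 of the 12 arrays were dim for Egr4, so no order of the groups is read from them. The E12.5 males were 1.55 above E11.5 (SE 0.51, 95% interval 0.43 to 2.67, unadjusted p = 0.0113, adjusted p = 0.287). The E12.5 females were 0.93 above E11.5 (SE 0.51, interval -0.19 to 2.04, adjusted p = 0.485). At E12.5, males and females differed by 0.63 (interval -0.49 to 1.74, adjusted p = 0.726), with 1 male array above both female arrays and the other between them. The E13.5 females differed from the E12.5 females by -0.51 (interval -1.63 to 0.61, adjusted p = 0.728), with all 4 arrays dim. None of these tested differences passed.

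Nab2, the corepressor known to be inducible, was measured by 1 probe set, 1417930_at. It gave 5.90 and 3.89 at E9.5, 5.24 and 3.86 at E10.5, and 3.82 and 3.14 at E11.5. At E12.5 it gave 3.30 and 5.61 in males and 4.71 and 4.44 in females. At E13.5 it gave 8.42 and 8.91 in males, and 5.58 and 6.19 in females. The 2 arrays of E13.5 males stood above all other arrays, and all other groups overlapped with their neighbour in the order of means. The E13.5 male mean of 8.67 ± 0.35 (SD, n = 2) lay 4.21 above the E12.5 male mean of 4.46 ± 1.63, 1 of whose arrays was dim. It lay 2.78 above the E13.5 female mean of 5.89 ± 0.43, or 6.87-fold, and the sex difference was 2.90 larger at E13.5 than at E12.5. As for Egr4, these values chose the gene.

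The E12.5 male arrays for Nab2 were 2.31 apart, so the difference in males depended on which of them was used: it was 3.06 if replicate 1 of the E12.5 males was dropped and 5.37 if replicate 2 was dropped. The change of the sex difference was 1.75 and 4.06 in the same cases. In females, Nab2 differed by 1.31 between E13.5 and E12.5, with means of 5.89 and 4.58 (SE 0.67, interval -0.17 to 2.79, adjusted p = 0.409). Both E13.5 female arrays were above both E12.5 female arrays, and the interval includes 0. At E12.5 the sexes differed by -0.12 (interval -1.60 to 1.36, adjusted p = 0.981). Both E13.5 female arrays were above the table median.

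Nab1, the other corepressor, had 3 probe sets. The one with the highest mean, 1448781_at, gave 7.43 and 6.87 at E9.5, 6.82 and 6.83 at E10.5, and 6.58 and 6.75 at E11.5. It gave 7.15 and 7.63 in males and 7.22 and 7.25 in females at E12.5, and 7.54 and 7.56 in males and 7.71 and 7.74 in females at E13.5. The group means spanned 1.06, against 5.19 for Nab2. The E12.5 males were 0.73 above E11.5 (SE 0.22, interval 0.25 to 1.20, unadjusted p = 0.00666, adjusted p = 0.211), and the E12.5 females were 0.57 above E11.5 (SE 0.22, interval 0.09 to 1.05, unadjusted p = 0.0235, adjusted p = 0.263). Neither passed. At E13.5, females were 0.49 above the E12.5 females (interval 0.01 to 0.97, unadjusted p = 0.0448, adjusted p = 0.319). The E13.5 sexes differed by -0.18 in Nab1 (male minus female, interval -0.65 to 0.30, adjusted p = 0.739), and both male arrays lay below both female arrays.

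The other probe sets of Nab1 gave other values for the step to E12.5. Probe set 1417624_at ranged from 6.58 to 7.72 over all arrays and differed by -0.08 between E12.5 males and E11.5 (SE 0.34, adjusted p = 0.974). Probe set 1438819_at ranged from 3.58 to 5.88 and differed by 0.01 there (SE 0.53, adjusted p = 1.0). Across all 3 Nab1 probe sets, no sex difference at E13.5 was larger than 0.36 in size, and the intervals reached from -1.04 to 1.52. The plot of every probe set shows these levels.

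Egr1, the most widely studied member, lies at chr18:34861207-34864956. It was measured by probe set 1417065_at and was above the table median on all 14 arrays. It gave 7.52 and 7.49 at E9.5, 7.82 and 8.80 at E10.5, and 7.17 and 7.97 at E11.5. At E12.5 it gave 8.02 and 6.83 in males and 8.94 and 7.11 in females, and at E13.5 it gave 8.68 and 7.92 in males and 7.19 and 7.36 in females. The group means spanned 1.04 and every group overlapped with its neighbours in their order, while arrays of 1 group lay up to 1.83 apart. At E13.5 males were 1.03 above females in the means (SE 0.60, interval -0.31 to 2.36, adjusted p = 0.375), and both male arrays lay above both female arrays. The corresponding difference at E12.5 was -0.60 (interval -1.93 to 0.73, adjusted p = 0.801). The change between these ages, 1.63, had an interval of -0.26 to 3.51 (adjusted p = 0.754).

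**Figure D2:**
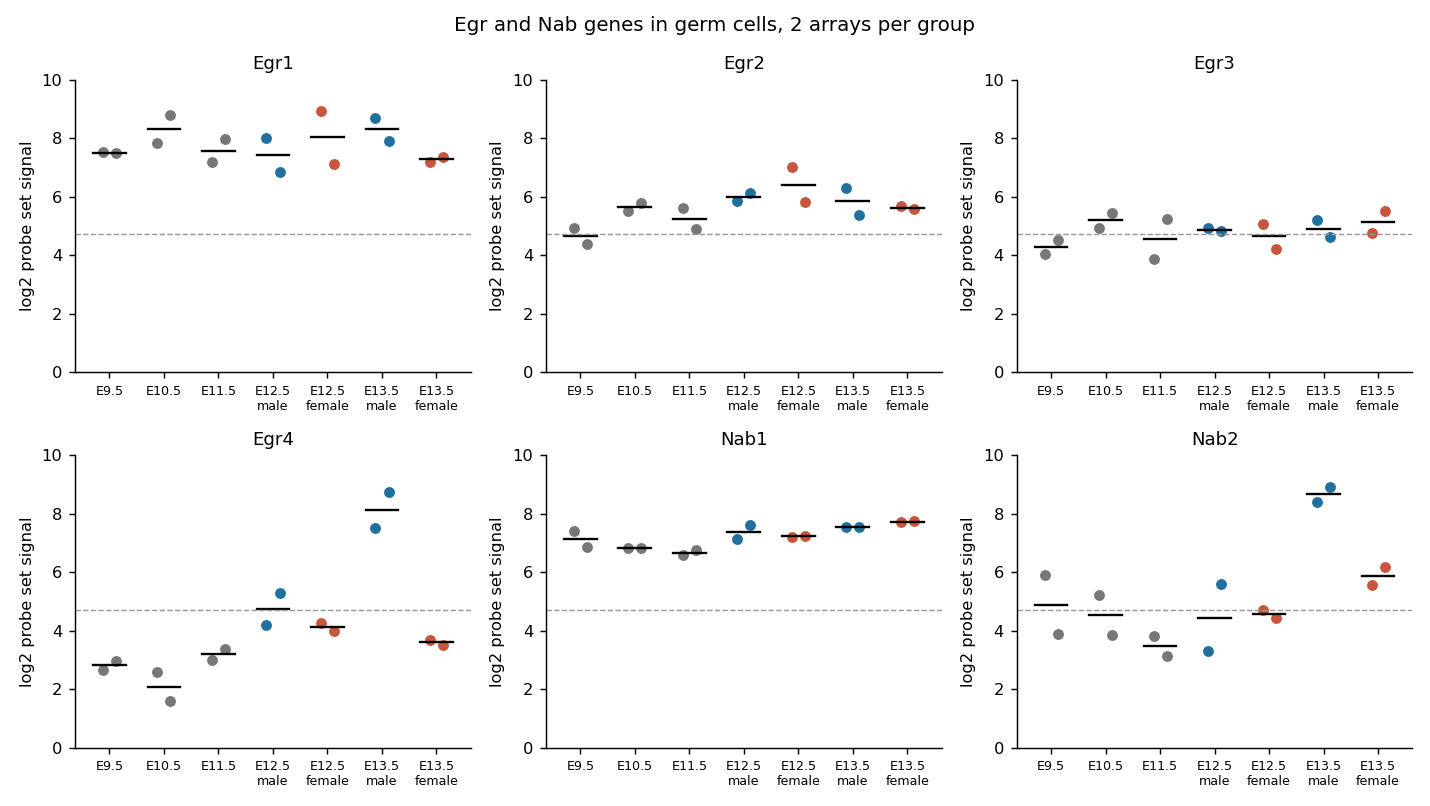
Log2 signal of the main probe set of each of the 6 genes on every array (points) with the mean of each group (bars), by age and sex; the dashed line is the table median of 4.72. Egr4 and Nab2 stand apart in E13.5 males, while the groups of Egr1 overlap.

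Egr2 had 2 probe sets. The main one, 1427683_at, gave 4.94 and 4.37 at E9.5, 5.52 and 5.79 at E10.5, and 5.60 and 4.90 at E11.5. At E12.5 it gave 5.85 and 6.14 in males and 7.01 and 5.80 in females, and at E13.5 it gave 6.29 and 5.38 in males and 5.67 and 5.57 in females. The E9.5 group had the lowest mean and the E12.5 females the highest, with each group overlapping its neighbours in the order. Egr2 at E10.5 was 1.0 above E9.5 (SE 0.43, interval 0.06 to 1.94, unadjusted p = 0.0395, adjusted p = 0.291). The E12.5 females were 1.16 above E11.5 (SE 0.43, interval 0.20 to 2.11, unadjusted p = 0.0218, adjusted p = 0.255). The second probe set, 1427682_a_at, gave 2.83 and 3.15 at E9.5 and 3.89 and 4.47 at E10.5, a difference of 1.19 (SE 0.42, adjusted p = 0.278). Both probe sets had their highest mean in E12.5 females, and neither passed a test there. For the E13.5 sexes the main probe set of Egr2 differed by 0.22 (interval -0.74 to 1.17, adjusted p = 0.860).

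Egr3 had the smallest span of group means, 0.91 for its main probe set, 1421486_at. It gave 4.03 and 4.53 at E9.5, 4.93 and 5.44 at E10.5, and 3.88 and 5.25 at E11.5. At E12.5 it gave 4.94 and 4.81 in males and 5.08 and 4.21 in females, and at E13.5 it gave 5.19 and 4.63 in males and 4.77 and 5.51 in females. These values lie close to the table median, and every group overlapped with its neighbours. The E13.5 sexes differed by -0.23 for this probe set (interval -1.30 to 0.84, adjusted p = 0.870). The second probe set, 1436329_at, was dim on all arrays and gave 3.86 and 3.69 in E13.5 males, against 2.71 and 1.22 in E13.5 females. That is a difference of 1.81 (SE 0.85, interval -0.07 to 3.69, adjusted p = 0.300), so the 2 probe sets differ in sign and neither passed.

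**Figure D3:**
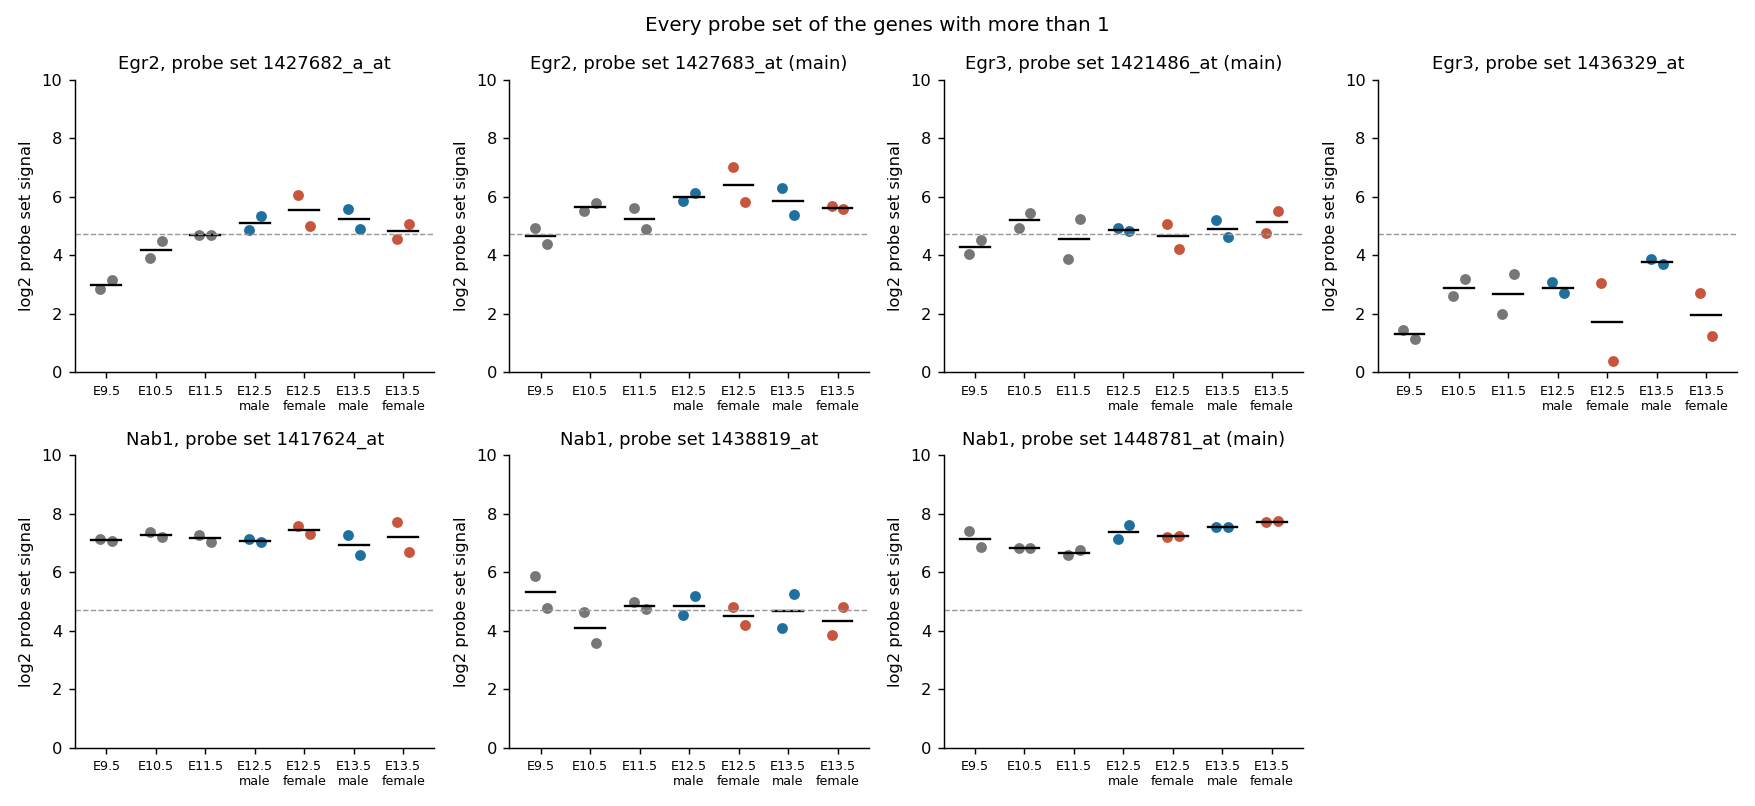
Log2 signal of every probe set of Egr2, Egr3 and Nab1 on every array (points) with group means (bars), by age and sex; the dashed line is the table median of 4.72. The 2 probe sets of Egr2 are both highest in E12.5 females, while those of Egr3 and of Nab1 differ from each other in pattern.

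Over the 9 comparisons, 48 member differences were tested and none passed by limma, while 6 had an unadjusted p under 0.05. The share of all genes at that unadjusted threshold is not given. Counts at it, for the members and for the gene lists below, are therefore not read as an excess. The counts of passing members read against all genes as follows. For E10.5 against E9.5, 0 of 6 members passed where 1.06% of all genes did, and Egr2 alone had an unadjusted p under 0.05. For E11.5 against E10.5, 0 of 6 passed where 0.077% of genes did, with no member at an unadjusted p under 0.05. For E12.5 females against E11.5, 0 of 6 passed against 1.86% of genes, and Egr2 and Nab1 had an unadjusted p under 0.05. For E12.5 males against E11.5, 0 of 6 passed against 1.01%, and those at an unadjusted p under 0.05 were Egr4 and Nab1. For E13.5 females against E12.5 females, 0 of 6 passed against 1.87%, with Nab1 at an unadjusted p under 0.05. For males against females at E12.5, 0 of 6 passed against 2.39%, and no member had an unadjusted p under 0.05.

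In the comparisons that chose Egr4 and Nab2, the 4 other members could be tested. For E13.5 males against E12.5 males, 0 of these 4 passed where 2.09% of all genes did. For males against females at E13.5, 0 of 4 passed where 10.2% of genes did. For the change of the sex difference, 0 of 4 passed where 0.011% did. No member among these had an unadjusted p under 0.05. With so few members, a count of 0 lies near what each background share gives for 4 or 6 genes, and it does not show that the members did not differ. The standard error of a difference between 2 groups was 0.60 for Egr1 and 0.67 for Nab2, against a median of 0.25 over the brighter genes of the array, so differences of 1.03 in Egr1 and of 1.31 in Nab2 did not pass. The plot of differences gives all of them.

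**Figure D4:**
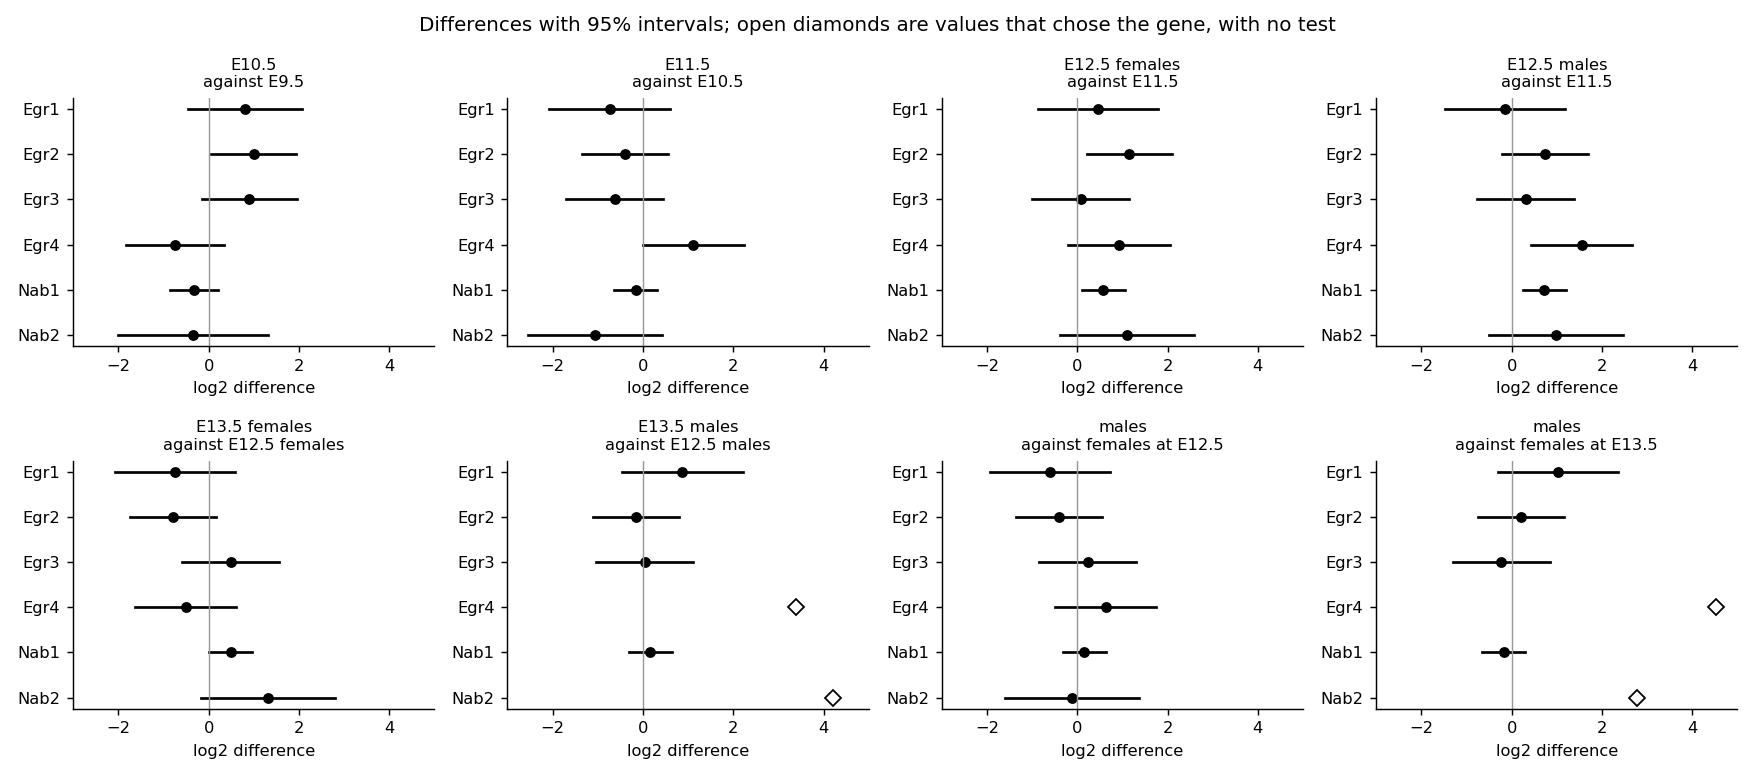
Log2 difference of each of the 6 genes in 8 comparisons (points, first-named group minus second) with the 95% interval of the limma model (lines). The open diamonds are the E13.5 male values of Egr4 and Nab2 that chose these genes, which have no test, and the interval of every other gene in those panels includes 0.

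The patterns of Egr4 and Nab2 over arrays were alike only through the E13.5 males: their Pearson r was 0.782 over 14 arrays and 0.166 over the 12 arrays without them. For Nab1 and Nab2 the values were 0.695 and 0.775, and for Egr1 and Egr3 0.549 and 0.528. These correlations share the arrays, their normalization and their replicates, and are given as descriptions. For Egr4 and Nab2, an r over 14 arrays includes the E13.5 male values that chose them. Nearly all of the other 12 arrays were dim for Egr4, so its r over those arrays has little signal behind it. Among 4259 genes with a mean above that of the median gene and group means spanning at least 1, those most like Egr4 were Acad12 (r = 0.955, or 0.839 without the E13.5 males), Zfp229 (0.947, or 0.745) and Uchl1 (0.946, or 0.909). Those most like Nab2 were Mypop (0.903, or 0.627), Med12 (0.889, or 0.757) and AI467606 (0.882, or 0.746). Nab1 was most like Pdzrn3 (0.936), Fzd10os (0.923) and Pja2 (0.922). Egr2 was most like Mafg (0.743), Cpeb1 (0.738) and Prpsap2 (0.735), and Egr1 reached only 0.617 with Zfp932, 0.613 with Efcab7 and 0.611 with Rlf. Egr3 was left out because its group means spanned less than 1.

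Of the other 28 immediate early genes, 3 were higher and 2 lower in males than in females at E13.5, where 4.18% and 5.99% of all genes were, and their median difference was -0.09, against -0.02 for all genes. Zfp36, which encodes an mRNA decay factor, averaged 6.68 in males and 4.96 in females (difference 1.72, adjusted p = 0.00726). Ier3, which encodes a regulator of cell survival, averaged 7.10 in males and 5.63 in females (1.48, adjusted p = 0.00246), and Ier5 averaged 8.55 in males and 7.28 in females (1.28, adjusted p = 0.0101). The calls of Zfp36 and Ier5 were lost without E13.5 male replicate 1 or E13.5 female replicate 1. Maff, encoding a small Maf factor, was lower, at 3.66 in males and 4.81 in females (-1.15, adjusted p = 0.0471), and Csrnp1 was lower by 0.78 in size (difference -0.78, adjusted p = 0.0287). Both calls were lost when any 1 of the 4 arrays was left out.

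Fos, a common marker of immediate early induction, gave 7.63 to 8.88 in E13.5 males and 9.71 to 10.21 in E13.5 females, so all male arrays were below all female arrays, and it did not pass (difference -1.71, adjusted p = 0.131). In males between E13.5 and E12.5, 0 of the 28 genes passed, where 2.09% of all genes did. Their median was -0.19, against 0.05 for all genes, and 4 had an unadjusted p under 0.05. Between E13.5 and E12.5 females only Ier3 passed, and it was lower (-1.24, adjusted p = 0.0292), where 0.566% of all genes were lower. In E12.5 males against E11.5, only Ier3 passed and was lower (-1.76, adjusted p = 0.00791), where 0.676% of genes were lower. In E12.5 females against E11.5, Ier3 (-1.80, adjusted p = 0.00475) and Ier5 (-1.20, adjusted p = 0.0457) were lower, where 0.445% of genes were. Each of these calls was lost without some single array of its comparison. Of heat shock genes, 2 of 6 were higher in males than in females at E13.5, where 4.18% of all genes were, namely Hspa1a (2.22, adjusted p = 0.00646) and Dnajb1 (0.72, adjusted p = 0.0293). At least 1 of these 2 calls was lost whichever of the 4 arrays was left out. Summed on the linear scale, the heat shock list gave 22389.6 to 26516.2 for the E13.5 males and 20109.8 to 23630.4 for the E13.5 females, and its part in the Egr4 and Nab2 values was not tested.

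Of 13 measured genes that are known to be induced by ERK, many of which inhibit it in return, 4 were higher and 1 lower in males than in females at E13.5, where 4.18% and 5.99% of all genes were, and the median was 0.54, against -0.02 for all genes. Dusp4, a phosphatase that switches off MAP kinases in the nucleus, averaged 10.93 in males and 9.66 in females (difference 1.27, adjusted p = 0.000568). Etv5 and Etv4, Ets factors induced by ERK, differed by 0.99 (adjusted p = 0.00153) and 1.41 (adjusted p = 0.022), and Il17rd, an inhibitor of FGF signalling, by 1.06 (adjusted p = 0.00225). Dusp5, a nuclear phosphatase of ERK, went the other way, at 5.15 in males and 8.32 in females (-3.17, adjusted p = 0.00143). The call of Etv4 was lost without E13.5 male replicate 1, E13.5 male replicate 2 or E13.5 female replicate 1, while those of Dusp4, Dusp5, Etv5 and Il17rd passed whichever of the 4 arrays was left out.

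The same genes were followed with age in each sex. From E12.5 to E13.5, 0 of the 13 ERK genes passed in males, where 2.09% of all genes did. Their median was -0.17, against 0.05 for all genes, and 4 had an unadjusted p under 0.05. In females 3 of 13 were lower at E13.5 than at E12.5, where 0.566% of all genes were, with a median of -0.76 over the list against 0.03 for all genes: Etv4 (-2.09, adjusted p = 0.0164), Dusp4 (-1.33, adjusted p = 0.00666) and Etv5 (-0.97, adjusted p = 0.0144). The count of 3 became 0 without E12.5 female replicate 1, E12.5 female replicate 2 or E13.5 female replicate 1. The change of the sex difference between the ages passed for 0 of the 13 genes, and for 0.011% of all genes, with 3 of the 13 at an unadjusted p under 0.05. At E12.5, 1 of the 13 was lower in males than in females, where 1.73% of all genes were. It was again Dusp5, with 6.56 in males and 9.08 in females (-2.53, adjusted p = 0.0175), and this call was lost when any 1 of its 4 arrays was left out. Among the 9 measured genes that carry the signal to Egr promoters (mostly activators of the ERK kinases, and serum response factor with its partners), 0 passed at E13.5 between the sexes, where 10.2% of all genes did. Of the 9, 0 had an unadjusted p under 0.05. Their differences ranged from -0.49 to 0.51.

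**Figure D5:**
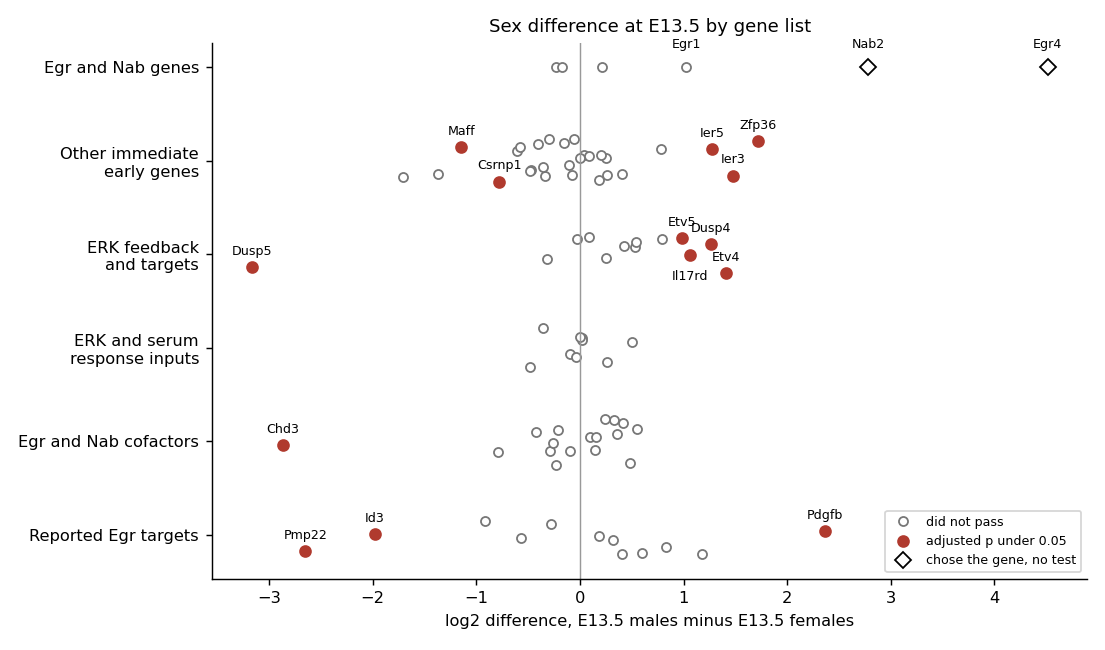
Log2 difference between E13.5 males and E13.5 females (male minus female) for the 6 Egr and Nab genes and the 5 lists of pathway genes; filled points passed at a limma adjusted p under 0.05, open circles did not, and diamonds are the values that chose Egr4 and Nab2. Of the ERK feedback genes that passed, 4 lie to the right of 0 and Dusp5 to the left, and Chd3 stands alone among the cofactors.

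For 17 genes of cofactors through which Nab and Egr proteins act, mostly subunits of the NuRD complex, the median sex difference at E13.5 was 0.10, against -0.02 for all genes. Of these 17, 16 did not pass there, where 4.18% of all genes were higher and 5.99% lower in males. The exception was Chd3, a remodelling ATPase of NuRD, which averaged 7.13 ± 0.18 in males and 10.00 ± 0.21 in females of that age (SD, n = 2 each) (difference -2.87, adjusted p = 6.72e-05). Chd3 was also lower in males at E12.5, with 7.59 in males and 9.72 in females (-2.13, adjusted p = 0.00137), where 1.73% of all genes were lower. In E12.5 males against E11.5 it was lower too (-2.08, adjusted p = 0.00544), where 0.676% of all genes were, a call lost without E12.5 male replicate 2. Its sex difference at both ages passed whichever array was left out. Chd4, the NuRD ATPase that Nab2 is known to bind, differed by 0.10 at E13.5 (SE 0.20, adjusted p = 0.862). From E12.5 to E13.5 in males, when Nab2 was higher, 0 of the 17 passed, where 2.09% of all genes did, and 2 had an unadjusted p under 0.05.

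Of 12 measured genes reported as Egr targets in other tissues, 1 was higher and 2 lower in males than in females at E13.5, where 4.18% and 5.99% of all genes were. Pdgfb, a growth factor chain, averaged 7.90 in males and 5.53 in females (difference 2.37, adjusted p = 0.00059). Pmp22, a myelin protein of Schwann cells, averaged 6.00 in males and 8.65 in females (-2.65, adjusted p = 0.000498), and Id3, an inhibitor of basic helix-loop-helix factors, averaged 9.85 in males and 11.83 in females (-1.98, adjusted p = 7.81e-05). All 3 calls held whichever of the 4 arrays was left out. Pmp22 and Id3 were already lower in males at E12.5 (-1.90, adjusted p = 0.0121, and -1.54, adjusted p = 0.00117), where 1.73% of all genes were. The call of Pmp22 at E12.5 was lost when any 1 of 4 arrays was left out. Between E13.5 and E12.5 males, 1 of 12 passed, Id3, which was lower (-0.79, adjusted p = 0.0459) where 0.731% of all genes were lower, and this call too was lost when any 1 of its arrays was left out. Between E12.5 males and E11.5, Pdgfb was higher (1.64, adjusted p = 0.0306), where 0.33% of all genes were, and Pmp22 (-1.70, adjusted p = 0.0356) and Id3 (-1.10, adjusted p = 0.0174) were lower, where 0.676% of all genes were. All 3 were lost when any 1 of the 4 arrays was left out.

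Markers of other gonadal cells were measured beside these results, and between the E13.5 sexes 4.18% of all genes were higher and 5.99% lower in males. Of 11 male supporting cell markers, 2 were higher in males at E13.5, Cst9 (6.44, adjusted p = 0.00041) and Ptgds (3.41, adjusted p = 0.000536). Both also passed at E12.5, with Cst9 4.90 and Ptgds 1.91 higher in males (adjusted p = 0.00679 and 0.0405), where 0.665% of all genes were higher, and each of these calls was lost without at least 1 array of its comparison. At E13.5 the defining marker Sox9 was dim in both sexes, at 2.61 in males and 3.13 in females. Amh averaged 6.01 in males and 5.94 in females. Dhh, another marker of the list, was 0.785 higher in males and did not pass (SE 0.25, adjusted p = 0.0817). Over the 11 markers the median difference was -0.04, with a range of -0.525 to 6.44. The summed linear signal of the male supporting list was 2685.8 to 3423.4 for the males of E13.5 and 2569.5 to 3280.4 for the females. These ranges overlap, although the E9.5 to E11.5 arrays reached at most 1768.8. At E12.5 the sum was 2109.6 to 2511.9 in males and 2686.8 to 2823.7 in females, although Cst9 and Ptgds were higher in males. The sum therefore cannot be read as the amount of male supporting cells in either sex. None of the 11 markers had a value of 0 on an E13.5 array. Of 7 female supporting markers, 3 were lower in males, led by Irx3 (-4.11, adjusted p = 0.000965). At least 1 of these 3 calls was lost whichever of the 4 arrays was left out. No marker of that list passed as higher, and its differences ranged from -4.11 to 1.14 with a median of -0.12. Of 15 gonadal somatic markers 2 were lower, Nr2f1 (-2.98, adjusted p = 0.00103) and Vim (-1.60, adjusted p = 0.00356). The somatic list summed to 934.8 to 1078.3 in males and 1857.1 to 2065.3 in females at E13.5. Its median difference was 0.09, with markers from -2.975 to 1.37, so the lower sum in males does not stand for the typical marker. The female supporting list summed to 699.0 to 816.2 in males and 666.7 to 678.6 in females. Of 10 endothelial markers only Cldn5 passed and was higher in males (1.94, adjusted p = 0.00493), a call lost without some single array of its comparison. Of 9 blood markers none passed by limma, with none at an unadjusted p under 0.05. The endothelial list summed to 790.8 to 1149.1 in males and 669.1 to 1413.5 in females, and the blood list to 181.8 to 556.4 in males and 191.2 to 450.3 in females, so both overlapped.

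The same markers were followed between E13.5 and E12.5 males, where Egr4 and Nab2 also differed. Rspo1, a secreted activator of Wnt signalling on the female supporting list, averaged 8.95 in E13.5 males and 6.195 in E12.5 males (difference 2.75, adjusted p = 0.0134), and Col3a1, a fibrillar collagen on the somatic list, averaged 6.49 in E13.5 males and 4.88 in E12.5 males (1.61, adjusted p = 0.0436), where 1.36% of all genes were higher. Of 9 germ cell markers, Tfap2c, a transcription factor of early germ cells, was lower, at 9.40 in E13.5 males and 10.35 in E12.5 males (-0.95, adjusted p = 0.0419), where 0.731% of all genes were lower. It was also lower in males than in females at E13.5 (-1.16, adjusted p = 0.00475), a call lost without E13.5 male replicate 2. In the step between males, the calls of Col3a1 and Tfap2c were lost when any 1 of the 4 arrays was left out, and that of Rspo1 when any but E12.5 male replicate 2 was. No marker of the male supporting, endothelial or blood lists passed by limma, with 1 of 11, 2 of 10 and 1 of 9 at an unadjusted p under 0.05. The female supporting list summed to 699.0 to 816.2 in E13.5 males and 274.3 to 386.6 in E12.5 males. The male supporting list summed to 2685.8 to 3423.4 in E13.5 males and 2109.6 to 2511.9 in E12.5 males. Both sums were higher in E13.5 males without overlap, but a linear sum weighs the brightest genes most. The median log2 difference was 0.235 for the female supporting list, with genes from -2.33 to the 2.75 of Rspo1. For the male supporting list it was 0.25, from -0.89 to 1.53, against 0.05 for all genes. The sums of the somatic list, 934.8 to 1078.3 and 1236.3 to 1413.9, were lower in E13.5 males without overlap. So were those of the endothelial list, 790.8 to 1149.1 and 1558.3 to 1637.3. The median difference of the somatic list was nevertheless 0.415, with markers from -0.935 to 1.61, so the typical somatic marker was not lower. That of the endothelial list was -0.1975, with markers from -1.86 to 0.57 and none passing. The germ cell list gave 43345.8 to 47171.8 in E13.5 males and 42493.4 to 44816.8 in E12.5 males, and the blood list 181.8 to 556.4 and 165.1 to 300.7, and both overlapped. The part of other cells in the Egr4 and Nab2 signals was not tested.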

How the data were processed

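Per the series' design text, the authors normalized all 14 arrays together, including 2 E9.5 arrays of an earlier study. The deposited values are log2 probe set signals, which ran between 0 and 14.04. The array software and the steps before normalization were not given in the sources used here, so detection calls were not used. Of 45101 probe sets, 34945 had a single symbol, and 34741 of these matched a RefSeq gene by Entrez identifier. Probe sets with several symbols or none and control probe sets were left out.

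For a gene with several probe sets, that with the highest mean was used. The models came from limma 3.58.1 (R 4.3.3) and had 1 mean per group, moderated variances with an intensity trend, two-sided tests and Benjamini-Hochberg adjustment over 18193 genes. A fit of the 12 arrays without E9.5 served 8 comparisons, and a fit of all 14 served E10.5 against E9.5. The model pools the spread of 2 arrays per group, with 6 residual degrees of freedom, or 7 with all arrays, and the number of arrays limits the precision. The fit was tested on simulated data. The labels call the replicates biological without naming embryos or litters.

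The members, comparisons and gene lists were chosen with earlier results of these data known. Named genes were the members with all their probe sets, at most 4 passing genes per list and comparison, and the 3 genes of highest correlation with a member. Fos, Chd4, Sox9, Amh and Dhh were named beyond that rule after their values were seen. Promoter windows came from RefSeq's GRCm38.p6. Windows on chromosome 18, where Egr1 lies, were left out before the search, so Egr1 was not searched. Windows were used for 4 of the 6 members.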

Additional observations from a re-analysis of the deposited data

Results flagged for a closer look

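The Egr4 difference between E13.5 and E12.5 had opposite signs on the arrays of the 2 sexes. It was 3.38 in males, the value that chose the gene, and -0.51 in females, where it did not pass (limma adjusted p = 0.728) and all 4 arrays were dim. The difference between the sexes was not tested, and an opposite change is not shown. No group had enough arrays for a check of single outlying arrays.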

How the results depend on the processing

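The number of Egr and Nab genes passing was 0 in all 9 comparisons under the 11 other settings and without any single array, and the lowest adjusted p of a tested member was 0.0988. The replicate block, with the replicate number as a covariate, also gave 0 in each comparison. The labels share only the number, and deviations of same-numbered arrays correlated with r of -0.27 to 0.23. Filtering genes below the median level left some members without a value. Of 798 alternative values of the 54 member differences, 757 kept their direction and 41 reversed it.

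With the mean of all probe sets, the log2 difference turned to 0.0575 for Egr2 and 0.15 for Nab1 at E11.5 against E10.5, to -0.44 for Egr3 in E12.5 females against E11.5, and to -0.0617 for Nab1 in E13.5 males against E12.5 males. For Egr3 that setting gave 0.79 between the E13.5 sexes and 0.0875 for the change of the sex difference, as its dim second probe set enters the mean. With the compared arrays alone, Nab1 was 0.20 at E10.5 against E9.5, also with the E9.5 to E11.5 arrays in the fit, and -0.08 in E12.5 males against E11.5, since another probe set had the highest mean there. Median centring gave -0.045 for Egr3 in E12.5 females against E11.5 and -0.02 in E13.5 males against E12.5 males, where quantile normalization gave -0.0021. Median centring moved the median gene by over 0.1 in 3 comparisons: to -0.075, where it was 0.05 as deposited, in E12.5 females against E11.5, to 0.075 from -0.045 between the sexes at E12.5, and to 0.085 from -0.02 at E13.5. Passing genes split as 176 higher and 112 lower in E12.5 females against E11.5 (257 and 81 as deposited), 165 and 235 in males at E12.5 (121 and 314) and 981 and 920 in males at E13.5 (761 and 1090). Quantile normalization gave 179 and 118, and 145 and 230, in the first pair, and 177 and 149 in E13.5 males against E12.5 males (248 and 133).

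With each array left out in turn, the differences that changed direction ranged as follows.
For E10.5 against E9.5 Nab2 -1.35 to 0.66.
For E11.5 against E10.5 Egr3 -1.305 to 0.065.
For E12.5 females against E11.5 Egr1 -0.46 to 1.37 and Egr3 -0.61 to 0.77.
For E12.5 males against E11.5 Egr1 -0.74 to 0.45, Egr3 -0.38 to 1.0, Nab1 -0.025 to 0.97 and Nab2 -0.18 to 2.13.
For E13.5 females against E12.5 females Egr1 -1.67 to 0.17.
For E13.5 males against E12.5 males Egr2 -0.62 to 0.30, Egr3 -0.25 to 0.32 and Nab1 -0.22 to 0.19.
For males against females at E12.5 Egr1 -1.52 to 0.32, Egr2 -1.02 to 0.20, Egr3 -0.21 to 0.67, Nab1 -0.31 to 0.40 and Nab2 -1.28 to 1.04.
For males against females at E13.5 Egr2 -0.24 to 0.67, Egr3 -0.60 to 0.14 and Nab1 -0.795 to 0.065.
For change of the sex difference from E12.5 to E13.5 Nab1 -0.57 to 0.43.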
